A study of Bos taurus with 10 samples.

Results

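CAPN1 and CAST, the genes of the calpain proteolytic system most often studied in relation to beef tenderness, were followed in the longissimus muscle of 10 steers. CAPN1 was the row ENSBTAG00000010230 and CAST the row ENSBTAG00000000874, so they are 2 of the 16963 genes in the count table. Both were named by identifier in a rule that uses no values, but earlier results of these data were known when they were chosen. The table lists identifiers alone, and the pairing of these identifiers with the symbols came with the choice of the genes. It was not checked against another source, because the RefSeq gene table at hand (ARS-UCD2.0) holds no Ensembl identifiers. The steers were Angus x Simmental crosses aged 385 ± 5 days. Group DDGS held 5 steers whose dams ate dried distillers grains and solubles during lactation, and group SBM, the control, held 5 steers whose dams ate the diet of that label. The diets were fed to the dams and the muscle came from their grown offspring, so each library describes the offspring of a fed cow. Each library held total RNA of 1 animal, and the labels give no dam, sire, pen or sequencing batch.

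CAPN1 encodes the catalytic subunit of mu-calpain, a cysteine protease that calcium activates. In muscle it cuts proteins that hold the myofibril and its cytoskeleton together, such as desmin, titin, nebulin and troponin T, and this cutting is known for its part in the softening of meat after slaughter. CAST encodes calpastatin, the inhibitor that binds calpains specifically when calcium is present. The balance of protease and inhibitor is therefore usually read from both genes, and variants of both serve as tenderness markers in cattle breeding. The values here are transcript levels in bulk muscle. Protein amount, protease activity and tenderness were not analysed here, and in bulk tissue a smaller number of cells of a type cannot be told apart from less RNA per cell.

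Libraries held 16942156 to 24936741 counts, given as unscaled read counts. The 2 genes with the most counts over all libraries together took 48.9% to 54.1% of each library. CPM below stands for counts relative to a library total adjusted by TMM, a factor that corrects for differences in composition. CAPN1 had 154 to 405 counts per library and CAST 1942 to 2948, both far above the lowest value of 1 in the table. The table thus held no zeros, and whether a listed 1 stands for 1 read cannot be told from it. Both genes passed the filter on low counts and were among the 12295 genes tested. In the RefSeq annotation of ARS-UCD2.0 the microRNA gene MIR2407 overlaps CAPN1, whereas no annotated gene overlaps CAST, whose nearest neighbours are LOC104968993 and ERAP1. The submitters' notes list another build, UMD3.1, so the gene models used for counting may differ. The strand setting of the counting is not given in the sources used here, so reads of a gene lying over CAPN1 could not be told apart from its own.

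CAPN1, the protease, varied widely between animals and overlapped between the diets. In the DDGS group, CAPN1 stood at 9.86 CPM in replicate 1, 13.1 CPM in replicate 2, 13.7 CPM in replicate 3, 11.0 CPM in replicate 4 and 17.0 CPM in replicate 5. In the SBM group, CAPN1 stood at 8.87 CPM in replicate 1, 17.4 CPM in replicate 2, 9.21 CPM in replicate 3, 16.6 CPM in replicate 4 and 21.2 CPM in replicate 5. The SBM group thus held both the highest and the 2 lowest values of all 10 animals, and the DDGS animals lay inside that range. Relative to total counts alone, DDGS replicate 1 (9.43 CPM) was lower than SBM replicate 3 (10.6 CPM). The means were 12.9 ± 2.7 CPM in DDGS and 14.7 ± 5.4 CPM in SBM (SD, n = 5 each). A DDGS animal had the higher CAPN1 level in 11 of the 25 possible pairs of a DDGS and an SBM animal.

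The difference in CAPN1 between the diets was smaller than the spread between animals. The fold change of DDGS over SBM was 0.882, with a 95% interval from 0.603 to 1.29 (log2 fold change -0.18 with a standard error of 0.26, edgeR quasi-likelihood test, unadjusted p = 0.50, adjusted p = 0.996 over all genes tested). An exact two-sided permutation test on log2 CPM gave a fold of 0.921, a 95% interval from 0.591 to 1.51 and p = 0.667 (n = 5 each). Neither interval reaches a 2-fold change in either direction, but the wider one holds both a fall to 0.591 and a rise to 1.51 times the control level, so equal CAPN1 levels under the diets were not shown either. Single animals moved the CAPN1 estimate both ways. Without SBM replicate 5, the animal with the highest level, the fold was 0.988, with an interval from 0.673 to 1.45. Leaving out SBM replicate 1 gave 0.803, leaving out SBM replicate 3 gave 0.805, and leaving out DDGS replicate 5 gave 0.81. Without DDGS replicate 1 it was 0.935, and without SBM replicate 2 it was 0.926.

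CAST, the inhibitor, was the steadier of the pair. In the DDGS group, CAST stood at 124 CPM in replicate 1, 144 CPM in replicate 2, 145 CPM in replicate 3, 114 CPM in replicate 4 and 106 CPM in replicate 5. In the SBM group, CAST stood at 112 CPM in replicate 1, 119 CPM in replicate 2, 111 CPM in replicate 3, 117 CPM in replicate 4 and 131 CPM in replicate 5. Here the DDGS group held both the 2 highest values and the lowest, and all SBM animals lay between them. This order depended on the scaling. Relative to total counts alone, SBM replicate 5 was highest at 146 CPM and SBM replicate 1 lowest at 102 CPM. All DDGS animals then lay between those 2 SBM animals. The means were 127 ± 18 CPM in DDGS and 118 ± 7.9 CPM in SBM (SD, n = 5 each), and a DDGS animal had the higher CAST level in 16 of 25 pairs.

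The CAST difference also lay within the spread between animals. The fold change of DDGS over SBM was 1.07, with a 95% interval from 0.874 to 1.32 (log2 fold change 0.10 with a standard error of 0.14, edgeR quasi-likelihood test, unadjusted p = 0.483, adjusted p = 0.996 over all genes tested). The exact two-sided permutation test on log2 CPM gave a fold of 1.07, a 95% interval from 0.908 to 1.27 and p = 0.357 (n = 5 each). Folds below 0.874 and above 1.32 thus lie outside both intervals, a narrower range than that of CAPN1. The CAST log2 fold change was 0.05 without DDGS replicate 2, 0.05 without DDGS replicate 3 and 0.15 without DDGS replicate 5.

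**Figure D1:**
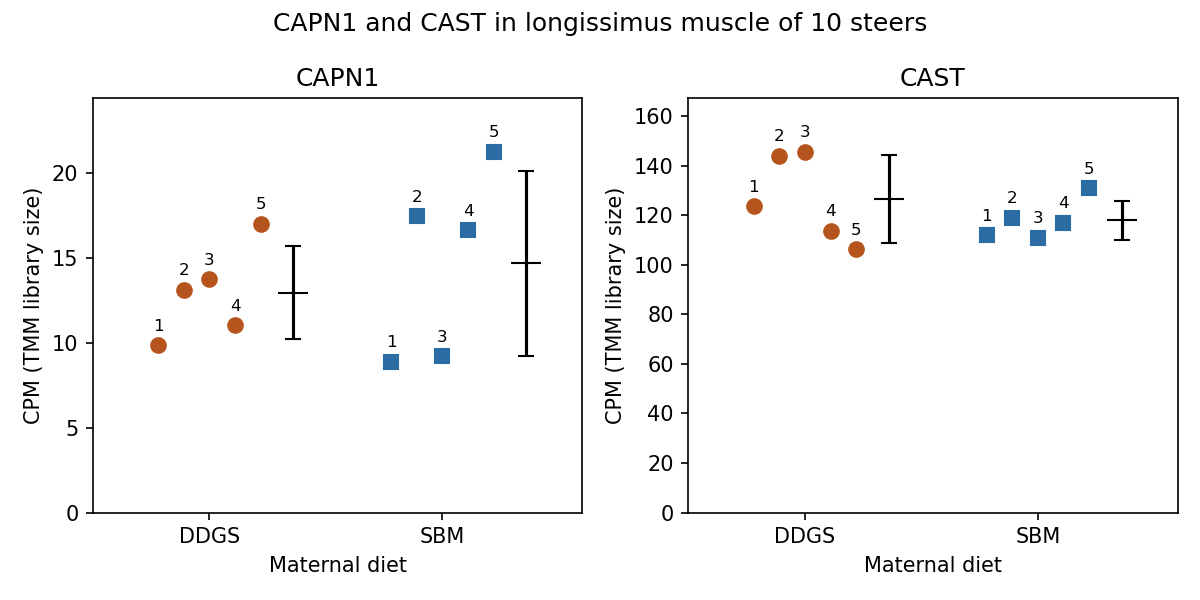
CPM of CAPN1 (left) and CAST (right) in each steer by maternal diet, numbered by replicate. Bars to the right of the points give the mean ± SD of 5 animals. The groups overlap for both genes, with CAPN1 between 8.87 and 21.2 CPM and CAST between 106 and 145 CPM.

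Neither gene stood out from the rest of the transcriptome in this comparison. Of all 12295 genes tested, 0% had an adjusted p under 0.05 in edgeR's quasi-likelihood test, and 0 of the 2 members did. At an unadjusted p under 0.05 the share was 3.74%, or 460 genes, and again neither CAPN1 nor CAST was among them. Groups without any overlap were seen in 0.781% of genes, and for both members the groups overlapped. By p-value, 6012 genes ranked ahead of CAPN1 and 5781 ahead of CAST, close to the middle of a list ordered by p. The median log2 fold change was -0.01 over all genes tested. It was 0.01 over the 4074 other genes within 2-fold of the mean CPM of CAPN1 and 0.07 over the 674 within 2-fold of that of CAST. DESeq2 called 15 of 14085 genes and limma voom called 0 of 12295. Neither tool called CAPN1 or CAST (DESeq2 adjusted p = 0.957 for CAPN1 and 0.978 for CAST, limma voom adjusted p = 0.970 and 0.951).

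By edgeR's estimates, the precision of both genes was that of ordinary genes at their level or better. The biological coefficient of variation (from edgeR's gene-wise dispersion) was 0.32 for CAPN1 and had a median of 0.32 over the 4074 genes of like CPM. For CAST it was 0.22, against a median of 0.24 over the 674 genes of like CPM, and 10.4% of those genes had a lower one. These estimates are drawn toward edgeR's trend over abundance, which was 0.33 at the level of CAPN1 and 0.27 at that of CAST. They are not the observed spread: the SD of CPM over all 10 animals was 30.1% of the mean for CAPN1 and 11.2% for CAST. On the log2 scale, CAPN1 had a standard deviation of 0.44 over the 10 animals, 4.72 times what counting alone gives. CAST had a standard deviation of 0.16, 5.21 times that of counting. The spread between animals thus exceeded counting error for both genes. With 1 library per animal, biological and technical spread cannot be told apart.

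The ratio of the protease to its inhibitor needs no library size, since both counts come from the same library. It is given as CAPN1 counts per 100 CAST counts and serves to compare animals. Because counts grow with transcript length and no length of the counted models was used, the ratio does not say how many CAPN1 molecules there were per CAST molecule. In the DDGS group it was 7.97 in replicate 1, 9.11 in replicate 2, 9.44 in replicate 3, 9.71 in replicate 4 and 16.0 in replicate 5. In the SBM group it was 7.93 in replicate 1, 14.7 in replicate 2, 8.30 in replicate 3, 14.2 in replicate 4 and 16.2 in replicate 5. The ratios left a gap between 9.71 and 14.2: 4 animals stood above it, 3 of them SBM, and 6 stood below it, 4 of them DDGS.

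This gap was wider than counting error if the reads are taken as independent. Exact (Clopper-Pearson) 95% binomial intervals of the 4 animals above it began at 12.6 or higher, and those of the 6 animals below it ended at 11.2 or lower. Such intervals cover counting error alone. Whether copies of a molecule made by PCR were removed is not given, and if they were counted as separate reads the intervals are too narrow. DDGS replicate 5 had nearly the same ratio as SBM replicate 5, 16.0 (14.3 to 17.9) against 16.2 (14.6 to 18.0), with both genes lower: CAPN1 at 17.0 against 21.2 CPM and CAST at 106 against 131 CPM. The 4 animals with the highest ratios were also the 4 with the highest CAPN1 levels. Their CAST levels, scaled by TMM, ranked 3rd, 5th, 6th and 10th of the 10. On the log2 scale the variance of CAPN1 was 0.19 and that of CAST 0.025, so differences in the ratio between animals were mainly differences in CAPN1. The gap was noticed in the data, and no test was made of it.

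**Figure D2:**
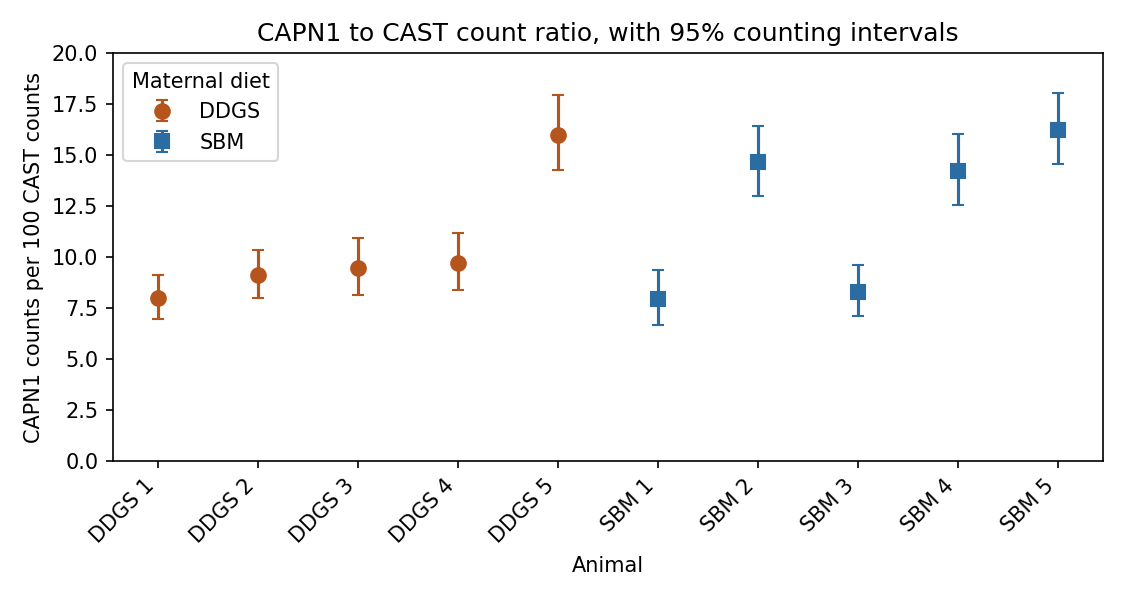
CAPN1 counts per 100 CAST counts in each steer. Error bars are exact 95% binomial intervals, which cover counting error only. DDGS replicate 5 and SBM replicates 2, 4 and 5 stand at 14.2 to 16.2, and the other 6 animals at 7.93 to 9.71.

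Between the diets, the ratio did not differ by more than the spread between animals. It averaged 10.4 ± 3.2 in DDGS and 12.3 ± 3.9 in SBM animals (SD, n = 5 each), with medians of 9.44 and 14.2. The mean log2 ratio was lower in DDGS by a fold of 0.863, with a 95% interval from 0.561 to 1.39 (exact two-sided permutation test, p = 0.492, n = 5 each), and the DDGS animal had the higher ratio in 11 of 25 pairs. This test also compares the diet effects on CAPN1 and CAST: the fold change of CAPN1 was below 1 and that of CAST above 1, but the difference between them did not pass the test. The smallest p that 5 against 5 animals allow is 0.00794. Single animals moved this estimate. The log2 difference was -0.21 with all animals, -0.38 without DDGS replicate 5 (exact permutation p = 0.167) and -0.10 without SBM replicate 5 (exact permutation p = 0.794). It was -0.35 without SBM replicate 1 and -0.34 without SBM replicate 3, against -0.13 without DDGS replicate 1 and -0.13 without SBM replicate 2. The 3 exact tests of CAPN1, CAST and the ratio are given without adjustment.

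CAPN1 and CAST did not rise and fall together across the animals in a way these data could resolve. Pearson's r of log2 CPM over 10 animals was 0.218 (permutation p = 0.536) and Spearman's rho was 0.285 (permutation p = 0.428, 1 relation tested). Without SBM replicates 1 and 5, the animals farthest from the median CAPN1 level, r was -0.015. Within the diet groups, taken as deviations from the group means, r was 0.279 (permutation p = 0.429). SBM replicate 5 was high in both genes, ranking 1st in CAPN1 and 3rd in CAST. DDGS replicate 5 ranked 3rd in CAPN1 and 10th in CAST, and DDGS replicate 3 ranked 5th in CAPN1 and 1st in CAST. These ranks hold for TMM scaling. Relative to total counts alone, CAST stood at 123 CPM in DDGS replicate 3 and at 146 CPM in SBM replicate 5.

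**Figure D3:**
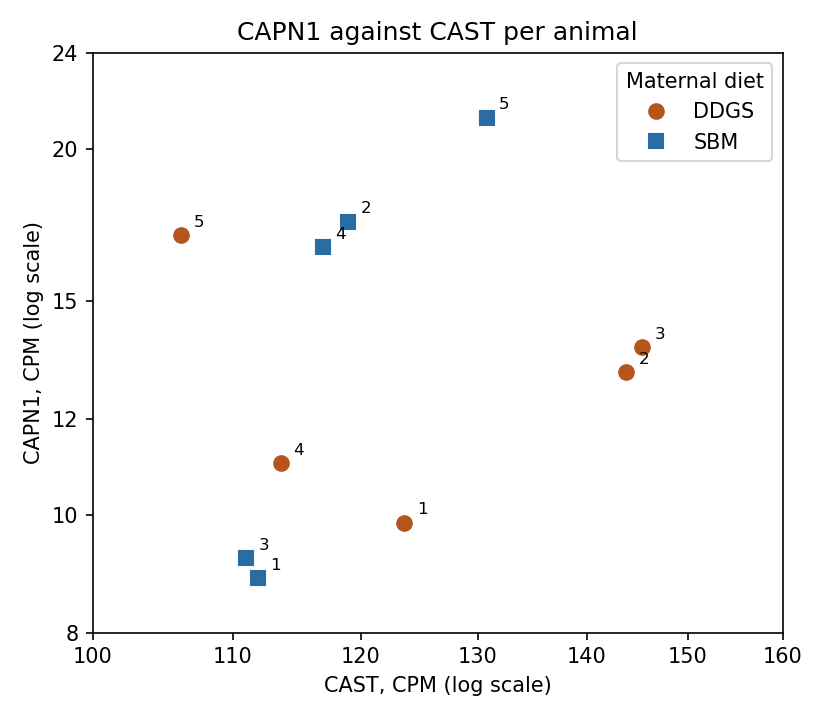
CPM of CAPN1 against CPM of CAST in each steer, both axes on a log scale, numbered by replicate. The points show no clear trend (Pearson's r = 0.218 on the log2 scale, 10 animals), and CAPN1 spans a wider range of folds than CAST.

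Other genes had patterns more like each member than the members had to each other. Among the 12294 other genes tested, the closest to CAPN1 in log2 CPM over the 10 libraries were ENSBTAG00000020378, with Pearson's r = 0.924 and 11.5 to 23.1 CPM, and ENSBTAG00000048081, with r = 0.916 and only 0.519 to 3.20 CPM. The closest to CAST were ENSBTAG00000016442, with r = 0.951 and 43.0 to 61.5 CPM, and ENSBTAG00000004850, with r = 0.923 and 62.5 to 106 CPM. By the same measure CAST came 3342nd in likeness to CAPN1, and CAPN1 came 3364th in likeness to CAST. These genes are given by identifier because the table pairs none with a symbol. They are the highest of 12294 correlations for each member over 10 libraries that share their scaling, and they are a description without a test.

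Library measures that could move with the members were set beside them. Total counts, the number of genes listed at 1 (2524 to 5078 per library) and the first principal component of the 500 most variable genes, on which SBM replicate 5 lay farthest out, were each compared with CAPN1 and with CAST. Over these 6 relations Pearson's r lay between -0.243 and 0.35, and the smallest p was 0.32 (permutation test, adjusted p = 0.859). These values moved when the 2 libraries farthest from the median of the library measure were left out. For CAST, r with the number of genes listed at 1 went from 0.35 to 0.069, r with the principal component from -0.243 to -0.529, and r with total counts from -0.043 to -0.334. For CAPN1, r went from 0.112 to -0.079, from 0.313 to 0.18 and from -0.228 to 0.0071 in the same order. Spearman's rho for the 6 relations lay between -0.37 and 0.382 (smallest permutation p = 0.28, adjusted p = 0.854). Fits without SBM replicate 5 and DDGS replicate 3 together, the libraries at the ends of that component, gave a fold of 0.977 for CAPN1 (0.656 to 1.45) and 1.06 for CAST (0.86 to 1.31).

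The direction of both differences was the same in every setting of the fit that was tried. The fits share all or most of their animals, so their agreement in direction is not independent support for it. Over all 20 fits, that with all libraries and TMM included, the CAPN1 estimate was below 1 and the CAST estimate above 1, and no interval reached 2-fold in either direction. The lowest bound for CAPN1 was 0.538 and the highest 1.45, and for CAST they were 0.829 and 1.38. Every interval of both genes included 1.

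**Figure D4:**
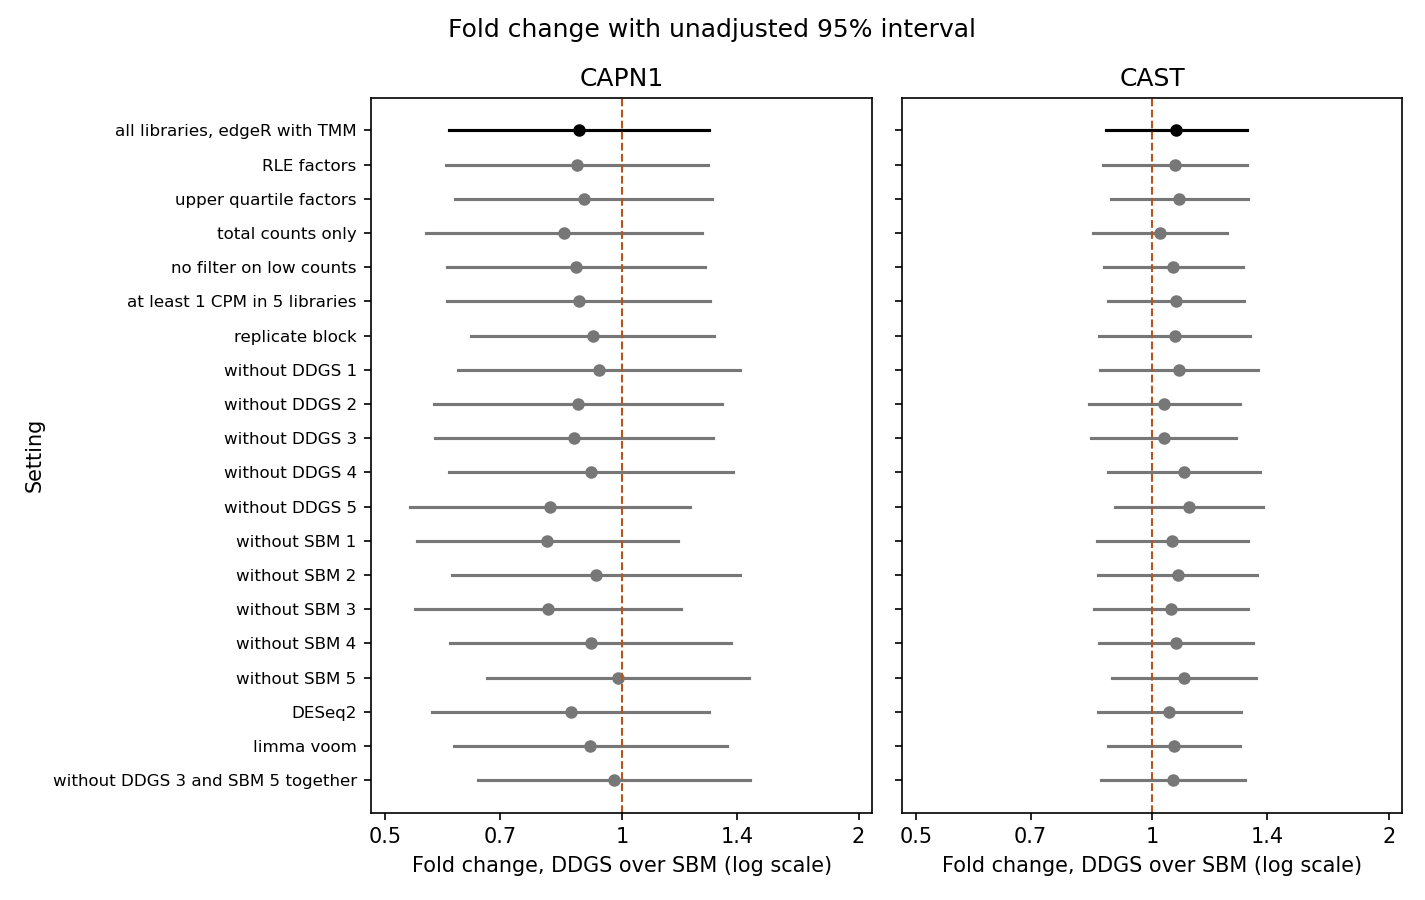
Fold change of DDGS over SBM for CAPN1 (left) and CAST (right) under each setting, on a log scale. Points are estimates, lines are unadjusted 95% intervals, and the dashed line marks no change. All intervals cross 1, and those of CAPN1 are wider than those of CAST.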

How the data were processed

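The authors deposited 1 table of whole-number read counts per Ensembl gene, with 1 column for each of 10 animals. Libraries were made with a stranded total RNA kit per the labels' protocols. The submitters' processing notes list the UMD3.1 build and, without roles or order, the tools HTSeq 0.5.3p7, TopHat2 2.0.9, Bowtie2 and FastQC 0.10.1. An annotation release, a strand setting or a filter is not given in the sources used here.

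Counts were fitted with edgeR 4.0.16 (R 4.3.3): TMM, default filter, robust quasi-likelihood test on diet alone, and p-values adjusted by Benjamini-Hochberg over all genes with a threshold of 0.05. Intervals came from the coefficient and its F statistic. Single values per animal were tested by exact permutation over all assignments of 5 and 5 animals, and their 95% intervals came from inverting that test. Correlations used 100000 permutations. The tests were checked on simulated data. The alternatives were other scalings and filters, a block for the replicate number, leaving out each library in turn, DESeq2 1.42.0 and limma voom (limma 3.58.1).

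No 2 libraries were identical, and the closest of 45 pairs differed by 41.6 times counting variance. Only the labels say that the libraries come from separate animals. The named genes were both members and, for each, the 2 genes with the highest Pearson's r. Members, lists and tests were chosen with earlier results of these data known. Lists of other calpains, substrates and marker genes by symbol were not counted, and the labelled tissue was not checked against markers, because 0 identifiers could be paired with symbols. No sequence is printed, and coordinates of the RefSeq table (ARS-UCD2.0) served only to find which genes neighbour or overlap the members.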

Additional observations from a re-analysis of the deposited data

Results flagged for a closer look

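DDGS replicate 5 had 16.0 CAPN1 counts per 100 CAST counts, far from the other 4 animals of its group, which stood at 7.97 to 9.71. The gap to the nearest was 0.784 of the group's range. Of 6 groups of 5 values examined this was the only one with such an animal, by a cutoff of 0.71 (Dixon's ratio of gap to range). For values from a normal distribution, chance alone gives about 1 in 20 groups, and 6 were examined. The measure was applied to values on the linear scale, and whether they are normal was not tested. The 6 groups are not independent, because the ratio is made from the counts of both genes. Among all 10 animals it did not stand alone, since SBM replicates 2, 4 and 5 had ratios of 14.2 to 16.2. Its CAPN1 level, 17.0 CPM, was the highest of the DDGS group. With TMM scaling its CAST level, 106 CPM, was the lowest of all 10 animals. Neither level stood apart from the group by the same measure. Its library held 20060963 counts, within the range of the others.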

How the results depend on the processing

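The CAPN1 and CAST comparisons kept their direction and stayed short of the threshold in 19 of 19 alternatives each, with log2 fold changes from -0.32 to -0.02 for CAPN1 and from 0.03 to 0.15 for CAST (adjusted p from 0.912 to 1 for CAPN1 and from 0.927 to 1 for CAST, edgeR, DESeq2 and limma voom). Without scaling factors the CAST log2 fold change was 0.03, its lowest. The alternatives share all or most of their animals, so they are not independent repeats of the comparison. The ratio comparison kept its direction and stayed short of the threshold in 14 of 14, with log2 differences from -0.59 (medians) to -0.07 (without DDGS replicate 3 and SBM replicate 5, chosen after seeing the data) and exact permutation p from 0.167 to 0.971. On the linear scale the mean difference was -1.82 CAPN1 counts per 100 CAST counts. Leaving out 1 animal gave log2 differences from -0.38 to -0.10. The correlation of CAPN1 with CAST was 0.107 to 0.40 without any single library. With all libraries it was 0.388 for CPM of total counts and 0.259 for CPM by RLE, another scaling. The correlation changed sign only without the pair farthest from the median CAPN1 level, at -0.015, and the cause was not tested. The number of genes called was 15 in DESeq2, 0 to 1 without a single library (1 without DDGS replicate 4) and 0 in the other alternatives. The labels share replicate numbers across the diets without saying that they pair animals, so the numbers were not taken as pairs. Same-numbered libraries correlated in their deviations from the group means at -0.099 to 0.171, and not every library correlated best with its own number. These correlations cannot exclude pairing, since paired libraries need not be the most alike. With the replicate block 0 genes were called, the log2 fold changes were -0.12 for CAPN1 and 0.09 for CAST, and the paired ratio difference was -0.21 (exact sign-flip permutation p = 0.375, where the smallest possible is 0.0625 with 5 pairs). The counts of lists by symbol were not run. Counting error was the smaller part of the spread over the 10 animals, which was 4.72 times that of counting for CAPN1 and 5.21 times for CAST; fits at other depths were not run.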
